A study of Mus musculus with 399 samples.

Results

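The livers of young TALLYHO/Jng (TH) mice, an inbred strain known for obesity and type 2 diabetes, were compared after 1 week of high-fat feeding and after 1 week of chow. The comparison used 24 of the 399 bulk RNA-seq libraries of the study, every TH liver taken at 5 weeks of age: 12 from high-fat mice and 12 from chow mice, each with 6 females and 6 males. The mice were weaned onto their diet at 4 weeks of age, and every liver came from a different animal. C57BL/6J (B6) mice on the same 2 diets at 5 weeks of age (24 liver libraries), and TH mice at 20 weeks of age after 16 weeks of diet (24 liver libraries), served only to show where the early TH response differed. The composition of the diets and the hour at which the animals were euthanized with CO2 were not given in the sources used here. Whole liver was sequenced, so fewer cells of a type and less RNA per cell cannot be told apart.

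Hepatocytes make cholesterol from acetyl-CoA through the mevalonate pathway, whose genes are switched on by the transcription factor SREBP2 when sterols in the endoplasmic reticulum run low and are shut off when dietary or cellular sterol is plentiful. The same cells clear drugs and plant compounds with cytochromes P450, conjugating enzymes and export pumps, many of which are induced through the nuclear receptors CAR and PXR. In mice many hepatic genes also differ between the sexes, under the control of growth hormone, and many follow the time of day under the circadian clock.

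Levels are given as CPM, counts scaled to a common library size, which compare one gene between livers and not 2 genes with each other. The 24 libraries held between 7210707 and 16711828 counts each (median 10560655.5), and each female group had a higher median total than each male group. No 2 libraries were identical, Xist (959 CPM or more in females, 4.87 CPM or less in males) and Ddx3y matched the labelled sex throughout, and Alb was at least 12100 CPM in every liver. Chow female libraries 2 and 3 carried skeletal muscle transcripts, with the 12 muscle markers summing to at most 525 CPM against a chow female median of 0.898 CPM. Chow female library 4 stood apart with high interferon-induced transcripts (Tgtp1 at 2110 CPM). The libraries also differed in clock state: Dbp, a clock output gene with a strong daily rhythm, ranged from 0.814 to 86.1 CPM. All 6 high-fat females had Dbp at 3.08 CPM or less, whereas chow females 1 to 3 had 59.5 CPM or more and 5 of 6 high-fat males had 12.4 CPM or more, with 6.14 CPM in the remaining male.

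Of 15372 genes with enough counts, 1822 (11.9%) differed between high-fat and chow at an adjusted p threshold of 0.05 (edgeR quasi-likelihood test with sex as a covariate). Of these, 784 rose (5.1% of the genes tested) and 1038 fell (6.75%). At least 2-fold changes were seen in 60 genes that rose and 132 that fell, while the median over all genes was -0.00347 on the log2 scale. Without adjustment, 3845 of the 15372 genes had p under 0.05 in this edgeR test. That unadjusted count was not made over all genes for the sex, strain or age differences. The values of the 2 sexes had the same sign in 1789 of the 1822 genes, which a fit over both sexes selects for. Taken by sex, 1050 genes passed in males (6.83%), of which 405 rose (2.63%) and 645 fell (4.2%), and 1717 passed in females (11.2%), of which 731 rose (4.76%) and 986 fell (6.41%). Of these, 387 passed in both sexes with the same sign, 638 passed in males only and 1305 in females only, counts that do not test a difference between the sexes. These counts by sex came from 1 fit with 4 group means. When each sex was fitted alone, 784 of the 1822 genes passed with the same sign in males and 766 in females. All 12 high-fat livers lay below all 12 chow livers for 55 genes (0.358% of those tested) and above them for 17 (0.111%). Within each sex, high-fat lay below chow without overlap for 107 genes (0.696%) and above for 44 (0.286%).

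The cholesterol synthesis pathway fell almost as a whole. Of its 20 genes, 18 fell (6.75% of all genes tested fell), none rose, and the median log2 fold change was -1. In a fit of the 16 libraries with the lower animal numbers, which hold all 6 high-fat females, 12 fell and none rose. The rest of these 16 were 3 chow females, 4 chow males and 3 high-fat males. With a term for the animal number series over all 24 libraries, 18 fell. The largest falls were in squalene epoxidase (Sqle), which catalyses the first oxygenation step of sterol synthesis, and in Idi1, Msmo1, Nsdhl and Hmgcs1. Acat2 (-0.21 ± 0.08 SE, adjusted p = 0.0934) and Ebp (-0.16 ± 0.06, adjusted p = 0.0765) did not pass the test, but both had an unadjusted p under 0.05.

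The promoters of 3 of these genes are shown because SREBP2 is known to act on sterol regulatory elements in promoters, often beside CCAAT boxes bound by NF-Y. The sequences are the 250 bases upstream of the annotated start on the gene's own strand, 5′ to 3′, from the RefSeq annotation of GRCm38.p6, at chr13:119690101-119690350 (plus strand) for Hmgcs1, chr8:64733579-64733828 (minus strand) for Msmo1 and chr13:8885356-8885605 (plus strand) for Idi1. Capitals mark TCACNCCA, a sterol regulatory element type of motif, and CCAAT, each searched on both strands, so that a CCAAT on the opposite strand reads ATTGG.
Hmgcs1: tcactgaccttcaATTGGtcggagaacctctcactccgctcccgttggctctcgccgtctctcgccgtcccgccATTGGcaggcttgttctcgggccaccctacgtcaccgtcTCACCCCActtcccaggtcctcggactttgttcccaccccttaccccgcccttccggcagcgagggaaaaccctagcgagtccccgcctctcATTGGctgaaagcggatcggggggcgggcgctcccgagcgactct
Msmo1: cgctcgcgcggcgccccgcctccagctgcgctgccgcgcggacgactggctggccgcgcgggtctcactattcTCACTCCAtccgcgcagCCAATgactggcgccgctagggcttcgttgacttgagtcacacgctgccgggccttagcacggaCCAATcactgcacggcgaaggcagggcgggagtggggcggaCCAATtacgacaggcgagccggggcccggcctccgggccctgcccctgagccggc
Idi1: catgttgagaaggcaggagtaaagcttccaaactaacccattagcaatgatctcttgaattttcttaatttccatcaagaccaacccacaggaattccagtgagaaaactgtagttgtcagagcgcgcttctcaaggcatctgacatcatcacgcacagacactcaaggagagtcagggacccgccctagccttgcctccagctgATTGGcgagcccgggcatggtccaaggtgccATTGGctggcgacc
TCACNCCA was found in 2 of the 15 pathway genes that had a promoter in the table (Hmgcs1 and Msmo1) and in 3.67% of all 32851 promoters of the same length. CCAAT was found in 14 of the 15 pathway genes and in 33.8% of all promoters. Sqle, Fdps and Fdft1 were not among the promoters used here. A match describes these letters only, and no binding was measured.

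At the entry of the pathway, Hmgcs1, which makes HMG-CoA, had lowest, median and highest levels of 221, 461 and 574 CPM in chow females and 128, 265 and 364 CPM in high-fat females. In males its levels were 171, 343 and 467 CPM on chow and 54.5, 61.9 and 80.1 CPM on high-fat. The male groups did not overlap, whereas the female groups did, and the log2 fold change over both sexes was -1.51 ± 0.26 (SE, n = 12 per diet, edgeR adjusted p = 1.98e-04). Further along, the enzymes Mvk, Pmvk, Mvd, Idi1 and Fdps, which turn mevalonate into farnesyl diphosphate, fell by 0.90 to 1.81 on the log2 scale.

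In the sterol part of the pathway, Sqle had 50.7, 119 and 202 CPM in chow females and 16.8, 44.6 and 67.2 CPM in high-fat females. In males it had 49.5, 86.7 and 107 CPM on chow and 5.26, 5.76 and 10.5 CPM on high-fat, so that every high-fat male lay below every chow mouse. The log2 fold change of Sqle was -2.34 ± 0.33 (adjusted p = 1.75e-05). Msmo1, a C4-methyl sterol oxidase, had 141, 199 and 237 CPM in chow females against 48.7, 94.3 and 146 CPM in high-fat females, and 162, 209 and 282 CPM in chow males against 36.3, 43.2 and 46 CPM in high-fat males. It fell by 1.69 ± 0.20 (adjusted p = 1.02e-06), and only the female ranges overlapped. The fall of Sc5d, a sterol desaturase (-0.40 ± 0.13, adjusted p = 0.0415), was lost in some alternative fits.

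**Figure D1:**
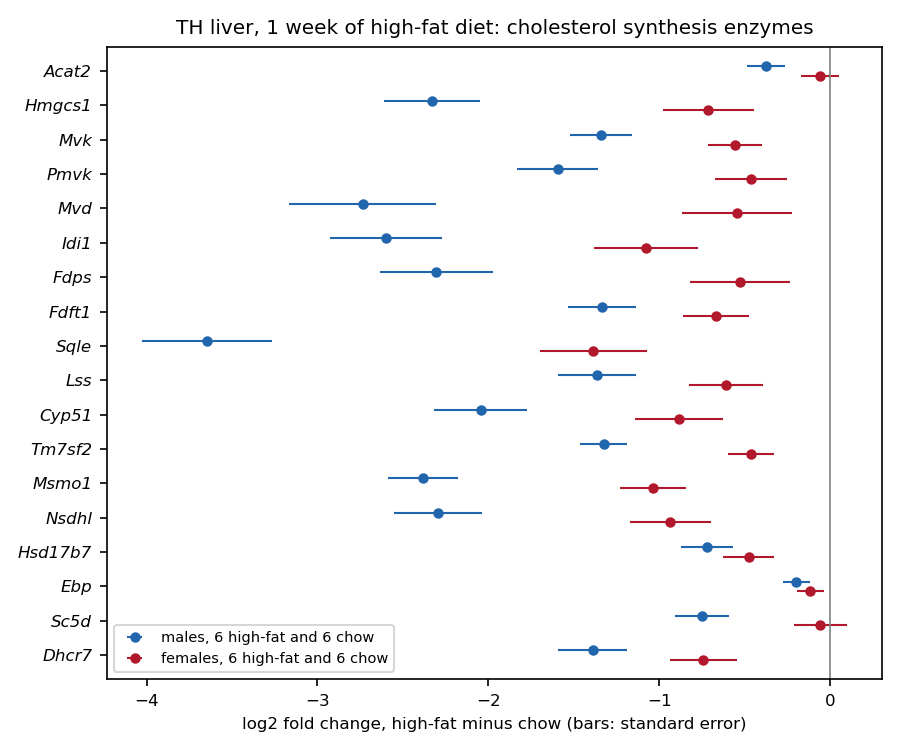
Log2 fold change (high-fat minus chow) with its standard error for 18 of the 20 cholesterol synthesis genes, drawn for males and females separately (6 livers per sex and diet). The male values lie further below 0 than the female values, with medians over all 20 genes of -1.43 and -0.559.

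The fall was deeper in males. Within males 19 of the 20 genes fell (4.2% of all tested genes fell in males) with a median of -1.43, and within females 11 fell (6.41% of all tested genes fell in females) with a median of -0.559. The difference between the sexes itself passed the test for 9 genes, all with the deeper fall in males (1.59% of all genes had a response lower in males), among them Sqle, Mvd, Fdps, Hmgcs1, Nsdhl, Msmo1, Pmvk and Tm7sf2. The male minus female difference was -2.26 ± 0.49 for Sqle (adjusted p = 0.0104). None of the 20 passed in edgeR, though 8 had an unadjusted p under 0.05, once the clock state, taken as log2 Dbp minus log2 Arntl in each liver, was added as a covariate, although all 20 then fell with diet over both sexes. Leaving out chow female library 4 gave 11 genes with a deeper male fall. A fit of the 12 female livers alone called 3 of the 20, and one of the 12 male livers alone called 20. Clock state and sex were tied together by group in these livers, and their separate parts in the difference cannot be told apart.

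Among the genes that control sterol synthesis and uptake, 5 of 11 fell and 1 rose, with 2 rises without chow female library 1. Of all genes tested 6.75% fell and 5.1% rose. In the fit of the 16 libraries with the lower animal numbers, 2 of the 11 fell and none rose. Tmem97, a sterol-regulated partner of the NPC1 transporter, had 53.1, 62.1 and 77.6 CPM in chow females, 32.8, 41.4 and 45.7 CPM in high-fat females, 46.8, 60.7 and 70.5 CPM in chow males and 26.2, 34.7 and 39.6 CPM in high-fat males. All 12 high-fat livers lay below all 12 chow livers, and the log2 fold change was -0.73 ± 0.07 (adjusted p = 7.60e-08). Srebf2 itself fell by 0.47 ± 0.11 (adjusted p = 0.0054), with a fall in males (-0.89) and a female value of -0.08. Insig1, which holds SREBP in the endoplasmic reticulum (-0.40 ± 0.16, adjusted p = 0.105), did not pass, and Scarb1, the HDL receptor, rose by 0.34 ± 0.07 (adjusted p = 0.00294). Of 10 genes listed for the sterol-sensing receptor LXR, its targets and sterol efflux, none passed over both sexes in edgeR. None had an unadjusted p under 0.05 and none passed in DESeq2. In an edgeR fit of the male livers alone 2 rose, and none passed in the female livers alone.

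The second large block was xenobiotic metabolism, where 18 of 22 genes fell (6.75% of all genes tested fell) and none rose, with a median of -0.893. For 10 of the 22 all 12 high-fat livers lay below all 12 chow livers, as for 0.358% of all genes tested. Cyp2b10, the classical CAR-induced cytochrome P450, had 23.1, 69.5 and 106 CPM in chow females and 0.44, 1.85 and 3.09 CPM in high-fat females. In males it had 23, 45.9 and 77.9 CPM on chow and 0, 0.191 and 0.71 CPM on high-fat. No high-fat liver reached the lowest chow liver, and Cyp2b10 had the largest fall of the genes named by rule, -5.69 ± 0.34 (adjusted p = 6.02e-12).

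Cyp3a11, the main PXR-induced cytochrome of mouse liver, had 5680, 6820 and 7030 CPM in chow females, 1960, 2150 and 2280 CPM in high-fat females, 9710, 11300 and 11800 CPM in chow males and 3770, 4070 and 4650 CPM in high-fat males. It fell by 1.53 ± 0.05 (adjusted p = 1.51e-16), with no overlap within either sex. Cyp2c55 fell by 4.20 ± 0.27, Cyp2c29 by 1.48 ± 0.12 and Cyp2a5 by 1.46 ± 0.23. The receptor genes themselves did not pass: Nr1i3 (CAR) had 0.08 ± 0.15 (adjusted p = 0.814) and Nr1i2 (PXR) -0.14 ± 0.06 (adjusted p = 0.128). Cyp1a2, a target of the aryl hydrocarbon receptor, also did not pass (-0.14 ± 0.10, adjusted p = 0.46).

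The conjugating enzymes fell with the cytochromes. Gsta2, a glutathione S-transferase, had 7.05, 16 and 30.7 CPM in chow females against 0.088, 0.187 and 0.832 CPM in high-fat females, and 17.2, 25.1 and 36.6 CPM in chow males against 0.97, 1.35 and 2.03 CPM in high-fat males. Its groups did not overlap and it fell by 4.78 ± 0.29 (adjusted p = 1.11e-11). Gsta1 fell by 4.67 ± 0.37, but Gsta1 and Gsta2 are near-identical copies between which reads can be split. Gstm3 had 112, 153 and 229 CPM in chow females, 27.4, 33.2 and 48.8 CPM in high-fat females, 265, 314 and 382 CPM in chow males and a lowest and median of 66.3 and 81.1 CPM in high-fat males. All its high-fat livers were below its chow livers, and it fell by 2.04 ± 0.12 (adjusted p = 3.25e-12). The carboxylesterase Ces2a fell by 1.75 ± 0.07 (adjusted p = 3.53e-15), and Gstt3, Gstm1, Gsta4 and Ugt1a1 fell by 0.58 to 2.15.

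**Figure D2:**
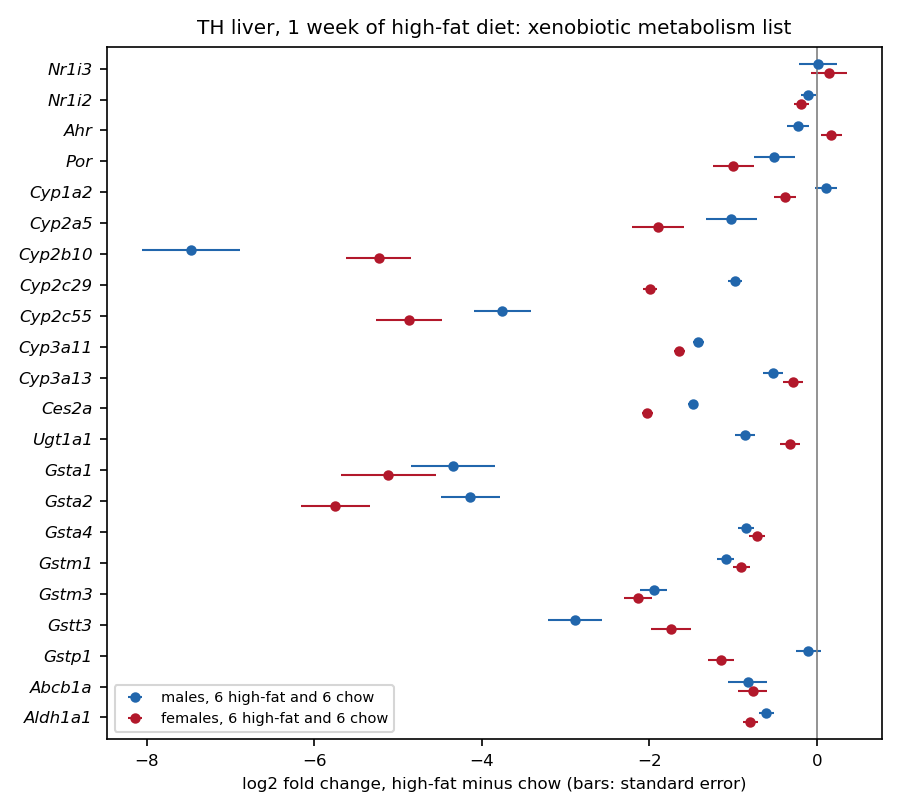
Log2 fold change (high-fat minus chow) with its standard error for the 22 xenobiotic metabolism genes, in males and females separately (6 livers per sex and diet). Cyp2b10, Gsta2, Gsta1 and Cyp2c55 lie below the other members in both sexes.

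Each sex showed 16 falls among the 22 genes, with medians of -0.917 in males and -1.07 in females. Of all genes tested, 4.2% fell in males and 6.41% in females, and 1.29% had a response higher in males. The sex difference passed for 3 genes, each with the deeper fall in females: Cyp2c29 (male minus female 1.01), Gstp1 (1.04) and Ces2a (0.54). Gstp1, much more abundant in males (1510 to 2020 CPM on chow, against 275 to 566 CPM in chow females), fell in females (-1.15) and had -0.10 in males. The count of 18 falls was the same in every leave-one-out fit and every other alternative that kept both sexes.

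Of 11 NRF2-driven antioxidant genes 5 fell and 1 rose, beside the 6.75% of all genes tested that fell and the 5.1% that rose. The transporter gene Abcc3, which exports conjugates and bile acids to blood, had 147, 310 and 452 CPM in chow females, 51.5, 70 and 97.7 CPM in high-fat females, 230, 278 and 313 CPM in chow males and 58.2, 62 and 89.4 CPM in high-fat males. No high-fat liver overlapped with chow, and it fell by 2.02 ± 0.15 (adjusted p = 2.88e-10). The 5 antioxidant genes that fell were Nqo1 (-0.86 ± 0.19), Gsr (-0.46 ± 0.05), Srxn1 (-0.45 ± 0.07), Txnrd1 (-0.38 ± 0.04) and Gclm (-0.29 ± 0.06). Hmox1, the haem oxygenase, rose by 0.38 ± 0.12 (adjusted p = 0.0463), a call lost in 20 of 34 alternative fits. The metal-binding metallothioneins Mt1 and Mt2 fell by 2.80 ± 0.50 and 4.06 ± 0.61 from low and scattered chow levels, which reached 57.3 CPM for Mt1 and 24.9 CPM for Mt2.

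Transcripts of amino acid breakdown were lower on high-fat. Of 16 genes of amino acid catabolism and the urea cycle 10 fell (6.75% of all genes tested fell) and none rose. Their median was -0.269. No gene of this list, of cholesterol synthesis or of xenobiotic metabolism rose at an unadjusted p under 0.05 or in DESeq2. Tat, tyrosine aminotransferase, had 1080, 1230 and 1330 CPM in chow females, 505, 552 and 1040 CPM in high-fat females, 1260, 1410 and 1990 CPM in chow males and 622, 765 and 976 CPM in high-fat males. Every high-fat liver lay below every chow liver, and it fell by 0.92 ± 0.11 (adjusted p = 1.13e-06). Oat, ornithine aminotransferase, fell by 1.08 ± 0.13 (adjusted p = 2.31e-06), and the urea cycle enzymes Cps1, Ass1, Asl and Arg1 fell by 0.23 to 0.47. Cth, which makes cysteine from cystathionine, fell by 0.96 ± 0.12 (adjusted p = 3.63e-06).

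Genes of fat handling moved in both directions. Their counts stand beside the 5.1% of all genes tested that rose and the 6.75% that fell. Apoa4, an apolipoprotein that rises with hepatic lipid load, had 43, 63.6 and 88.2 CPM in chow females, 253, 293 and 313 CPM in high-fat females, 27.7, 36.1 and 64.7 CPM in chow males and a lowest and median of 161 and 178 CPM in high-fat males. All 12 high-fat livers lay above all 12 chow livers, and it rose by 2.22 ± 0.12 (adjusted p = 2.98e-12). Among 14 apolipoprotein and lipoprotein assembly genes, 5 rose and none fell, and apart from Apoa4 the rises were small (Apoa1 by 0.29, Apoc3 by 0.19, Apoh by 0.18 and Lipc by 0.14 on the log2 scale, the last a call lost in 22 of 34 alternative fits). None of the 14 fell at an unadjusted p under 0.05 or in DESeq2.

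Fatty acid synthesis showed 4 rises and 2 falls among 22 genes, and 2 rises and 2 falls without chow male library 5, chow male library 6 or high-fat male library 6. Elovl5 (0.58 ± 0.14) and Fads2 (0.42 ± 0.09), which elongate and desaturate polyunsaturated fatty acids, rose, Acss2, which makes cytosolic acetyl-CoA from acetate, fell by 1.16 ± 0.16, and the citrate carrier Slc25a1 fell by 0.24 ± 0.06. Within males 1 of the 22 genes rose and 4 fell (median -0.304), and within females 4 rose and 1 fell (median 0.191). Of all genes tested, 2.63% rose and 4.2% fell in males, and 4.76% rose and 6.41% fell in females. The response was lower in males for 4 genes (1.59% of all genes), and for 1 with the clock state as a covariate. Over both sexes, Fasn, the fatty acid synthase, had -0.03 ± 0.25 (adjusted p = 0.975) and Scd1, the stearoyl-CoA desaturase, -0.08 ± 0.44 (adjusted p = 0.944). Fasn was 1.48-fold lower in males and 1.42-fold higher in females. For Scd1 the sexes went apart, with a fall in males (-1.42) against 1.25 in females, which did not pass on its own. The difference of -2.67 passed (adjusted p = 0.0174), but not with the clock state as a covariate (-2.76, adjusted p = 0.0757).

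In fatty acid oxidation and ketone synthesis, 5 of 28 genes rose and 7 fell, and without high-fat female library 2 the counts were 8 and 5. Cpt1a, which admits fatty acids to mitochondria, rose by 0.48 ± 0.11 (adjusted p = 0.00505), while the peroxisomal enzyme Ehhadh fell by 0.63 ± 0.09 (adjusted p = 1.06e-05).

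The hepatokine gene Fgf21 rose by 3.46 ± 0.42 (adjusted p = 2.05e-06) from 0.0743, 0.181 and 0.271 CPM to 0.681, 3.49 and 6.51 CPM in females. In males it had 0, 0.256 and 0.493 CPM on chow and 0.284, 0.719 and 1.75 CPM on high-fat, groups that overlapped, and the male value of 1.72 did not pass. Vnn1, a PPARα target, showed the same order, with 2.90 in females and 0.96 in males, of which the female value passed, but the sex difference of -1.94 ± 0.70 did not (adjusted p = 0.155). Of 16 lipid droplet and fatty acid uptake genes 3 rose and 3 fell. G0s2, an inhibitor of the lipase ATGL, rose by 0.92 ± 0.17 and the fatty acid transporter Slc27a2 by 0.43 ± 0.08, while Fitm1 fell by 1.39 ± 0.21 and the VLDL receptor gene Vldlr by 0.93 ± 0.21.

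Bile acid and glucose genes also went both ways, beside the 5.1% of all genes tested that rose and the 6.75% that fell. In bile acid synthesis and transport, 6 of 19 genes fell and 2 rose, with 1 rise without high-fat female library 1 or 2 or high-fat male library 5. Cyp7a1, whose product limits the rate at which bile acids are made, had 95.1, 228 and 315 CPM in chow females, 47.5, 78.9 and 175 CPM in high-fat females, 52.2, 89.9 and 365 CPM in chow males and 16.2, 38 and 111 CPM in high-fat males. The groups overlapped in both sexes, and it fell by 1.40 ± 0.33 (adjusted p = 0.00479). In glucose metabolism 5 of 18 genes rose and 2 fell: among these, pyruvate kinase (Pklr, 0.73 ± 0.14) and pyruvate carboxylase (Pcx, 0.28 ± 0.04) rose, and Pck1, the gluconeogenic carboxykinase, fell by 0.55 ± 0.13.

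Acute phase genes, whose products the liver secretes into plasma, went both ways. Of 18 measured, 3 rose and 3 fell (edgeR), beside the 11.9% of all genes that passed, and their median was 0.02 on the log2 scale. The orosomucoid genes Orm1 (-0.44 ± 0.08), Orm2 (-0.65 ± 0.10) and Orm3 (-1.91 ± 0.33), which code for plasma carrier proteins, fell; they are close paralogs, so reads may be split between them. In the fit of all 96 livers Orm3 passed and Orm1 and Orm2 did not (highest adjusted p over the alternatives 0.0538 and 0.105). The fibrinogen chains Fga (0.25 ± 0.08) and Fgb (0.25 ± 0.07) and the plasma protein Itih4 (0.15 ± 0.05) rose, and none of the 3 passed in the fit of all 96 livers, with no filter on low counts, without chow female libraries 2 and 3 together or without high-fat female library 4. One acute phase gene rose without chow female library 2 or 3 or high-fat female library 1, 3 or 5, and 5 rose without chow female library 4.

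The integrated stress response slows translation and induces amino acid supply genes. Of its 12 measured genes 2 rose and 2 fell, with a median of -0.11. Of all genes tested 5.1% rose and 6.75% fell. Nupr1 (0.95 ± 0.15), a stress-induced regulator, and Chac1 (0.81 ± 0.20), which degrades glutathione, rose, and Cth (-0.96 ± 0.12), a cysteine-forming enzyme, and Vldlr (-0.93 ± 0.21), a lipoprotein receptor, fell. Of 13 measured genes of the growth hormone and IGF axis none passed in edgeR; at an unadjusted p under 0.05, 3 were higher and 1 lower, and 1 rose in DESeq2. Other edgeR fits did call members: 1 rose without chow female library 1, 2 or 3, high-fat female library 1 or 3 or chow male library 1 or 2, and 1 fell without chow female library 1, 4, 5 or 6. In addition, 2 rose in the average of the sexes from 4 group means and 3 rose with the clock score as a covariate.

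Outside these pathways, the genes with the largest rises named by rule included Adgrv1, a large adhesion receptor. Its levels were 0.892, 1.65 and 2.16 CPM in chow females, 3.83, 5.33 and 7.63 CPM in high-fat females, 1.96, 2.46 and 3.95 CPM in chow males and 27.4, 34.3 and 42.5 CPM in high-fat males. High-fat lay above chow without overlap within each sex, with 2.83 ± 0.24 over both (adjusted p = 2.64e-09) and a response larger in males by 1.91 ± 0.30 (adjusted p = 7.62e-04). Stap1, an adaptor protein, rose by 2.31 ± 0.16 (adjusted p = 1.21e-10), by 2.36 in males and 2.27 in females (difference 0.10 ± 0.35), and its 12 high-fat livers were all above its 12 chow livers.

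Slc22a7, an organic anion transporter, went from 9.96 to 41.7 CPM in chow females to 61 to 86.7 CPM in high-fat females, and from 8.76 to 30.7 CPM in chow males to 63.1 to 121 CPM in high-fat males. It rose by 1.79 ± 0.21 (adjusted p = 9.76e-07) and its 12 high-fat livers were all above the chow livers, as were those of Dnaic1, a dynein chain (1.81 ± 0.30). The serpin Serpina12 (vaspin) rose by 1.87 ± 0.22, and Ugt3a2, a glycosyltransferase, by 1.33 ± 0.10. Moxd1 reached 3.41 to 53.5 CPM in high-fat males, against 0.927 CPM or less in chow males and 0.088 CPM or less in females. Its call was lost in the fits that gave the sexes separate means (adjusted p = 0.246), as were those of Cux2 and Aldh3b3. At the other end, Ly6a, Snhg11, Cyp26a1, which degrades retinoic acid, Abcc12 and Adam11 fell by 2.16 to 3.71. Tpm2, a tropomyosin, had -2.13 ± 0.57 with all libraries and -0.51 (adjusted p = 0.232) without chow female libraries 2 and 3, those with muscle transcripts.

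**Figure D3:**
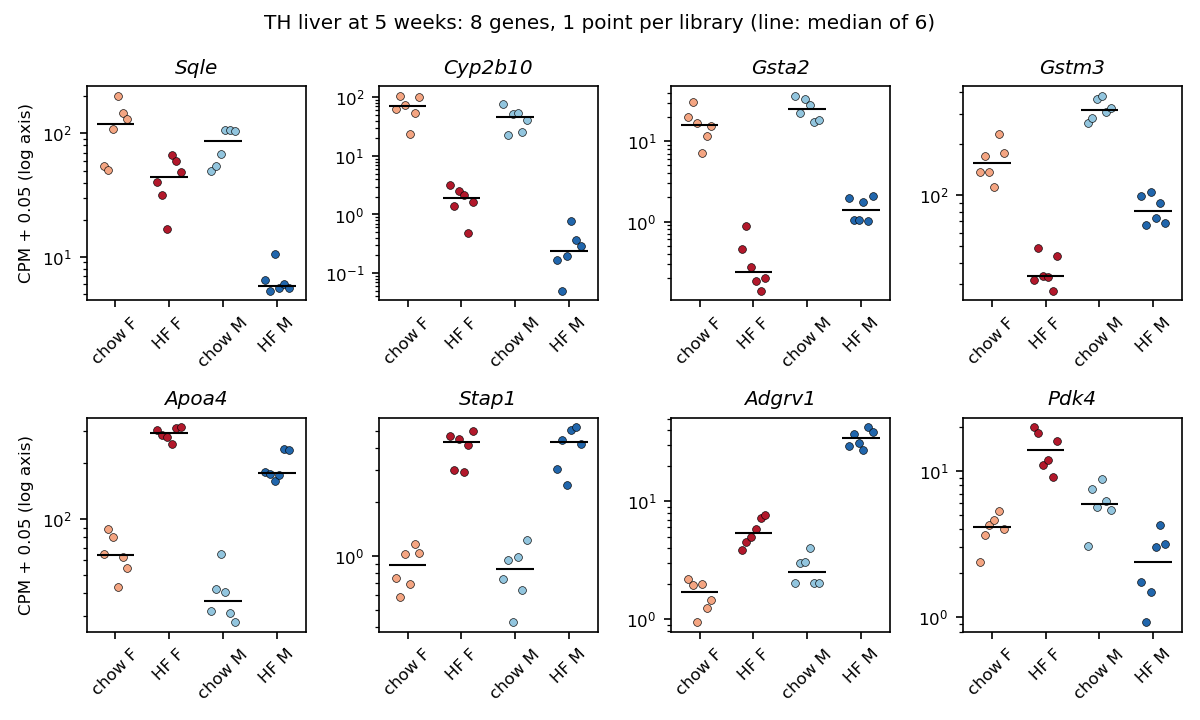
CPM plus 0.05 on a log axis in each of the 24 livers for 8 genes, with a line at each group's median (6 livers per sex and diet). Cyp2b10, Gsta2 and Gstm3 are lower, and Apoa4 and Stap1 higher, in all 12 high-fat livers, whereas Pdk4 moves in opposite directions in the 2 sexes.

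The diet response differed between the sexes for 444 genes (2.89% of 15372), with 199 responses higher in males (1.29%) and the others lower (1.59%). Pdk4, which inhibits the pyruvate dehydrogenase complex, had 2.33, 4.08 and 5.24 CPM in chow females and 8.97, 13.9 and 19.8 CPM in high-fat females. In males it had 3.01, 5.92 and 8.72 CPM on chow and 0.876, 2.33 and 4.2 CPM on high-fat. It rose in females (1.85) without overlap and fell in males (-1.37) with overlap, a difference of -3.23 ± 0.39 (adjusted p = 3.48e-05). With the clock state as a covariate the difference of Pdk4 was -2.29 (adjusted p = 0.00693).

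Cyp2c38, a cytochrome, fell in males (-2.39), had 0.51 in females (adjusted p = 0.115) and differed by -2.90 ± 0.32 (adjusted p = 1.01e-05). The acetyltransferase genes Nat8f7 and Nat8f3 rose in females (2.59 and 2.48), had -0.72 and -0.51 in males, and differed by -3.31 ± 0.50 and -2.98 ± 0.44. Of 16 genes known to be male-biased in liver, 8 had responses higher in males (edgeR), beside 1.29% of all genes. There were 4 in the fit of all 96 livers and 3, with 1 lower, in the 16 libraries with the lower animal numbers. The major urinary protein gene Mup20 had 2180, 2660 and 3650 CPM in chow males and 8650, 8940 and 10900 CPM in high-fat males. It rose in males by 1.73 without overlap, whereas the female value was -0.11, and the difference was 1.84. Mup genes are near-identical copies between which reads can be split. Cyp4a12a, a fatty acid hydroxylase, fell in females (-2.57) and had -0.44 in males, a difference of 2.14 (adjusted p = 0.0135) that did not pass in the 16 libraries with the lower animal numbers (1.21, adjusted p = 0.186). Among 20 genes known to be female-biased, 3 had responses lower in males, beside 1.59% of all genes. There was 1 in the fit of all 96 livers and 5 with the clock score as a covariate. Cyp3a41a fell by 1.82 in males and 0.51 in females (difference -1.31, adjusted p = 1.95e-05), and its difference did not pass in the fit of all 96 livers (adjusted p = 0.149).

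With the clock score as a covariate, the male minus female difference was 1.82 for Adgrv1 (adjusted p = 0.0166), -3.22 for Cyp2c38 (adjusted p = 4.67e-04), -2.67 for Nat8f7 (adjusted p = 0.0289) and -2.60 for Nat8f3 (adjusted p = 0.0230). It was 1.89 for Mup20 (adjusted p = 0.00567), 2.60 for Cyp4a12a (adjusted p = 0.0142) and -1.32 for Cyp3a41a (adjusted p = 0.00155), so that these 7 genes passed with and without it. Of the 12 genes named by rule for the sex difference, 5 kept their call under that covariate, 5 no longer passed and 2, Ciart and Usp2, changed sign.

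Clock genes supplied the highest male minus female values after Dmbt1, which was raised in chow female library 4 (182 CPM). Dbp had 0.926, 32.2 and 81.6 CPM in chow females, 0.814, 1.3 and 3.08 CPM in high-fat females, 1.41, 3.04 and 50.8 CPM in chow males and 6.14, 62.5 and 86.1 CPM in high-fat males. Within chow females, and within chow males, the values split widely, and the male minus female difference was 6.62 ± 1.42 (adjusted p = 0.0101). In chow females the split ran with animal number. The clock score was 4.49 to 6.15 in libraries 1 to 3, with lower animal numbers, and -3.8 to -0.69 in libraries 4 to 6. In chow males library 1 scored 3.85 and the other libraries -3.03 to -1.35, although libraries 1 to 4 had lower animal numbers. Of the 18 clock genes 7 had responses higher in males, beside 1.29% of all genes. None of the 18 did with the clock score as a covariate, which is built from 2 of them. Over both sexes, none of the 18 passed in edgeR, 1 had an unadjusted p under 0.05 and none passed in DESeq2, while 2 rose without chow female library 1. Whether the hour of collection differed between the groups was not tested, since no source used here gives it.

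**Figure D4:**
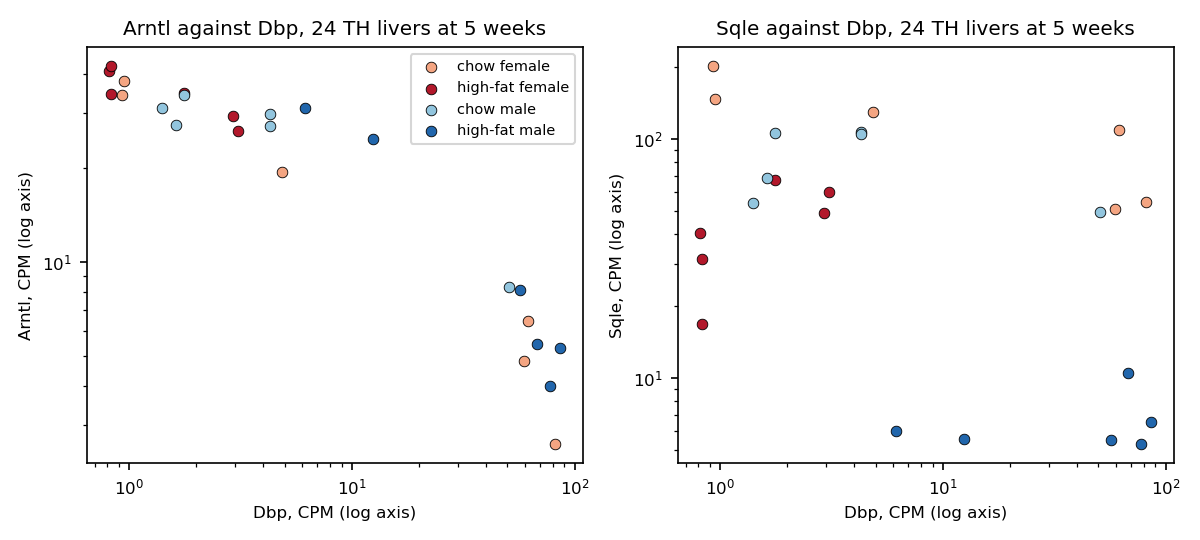
Arntl against Dbp and Sqle against Dbp in the 24 livers, all in CPM on log axes, with sex and diet marked. Livers with high Dbp have low Arntl, the high-fat females all lie at the low end of Dbp and most high-fat males at the high end.

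Markers of non-parenchymal cells gave 1 or 2 calls in some lists and none in others, beside the 11.9% of all genes that passed. Of 12 Kupffer cell markers 1 passed, Clec4f (0.37 ± 0.09, adjusted p = 0.00517), and 2 passed without chow female library 4. The summed level of the 12 markers ranged from 148 to 276 CPM in chow females, 200 to 358 CPM in high-fat females, 147 to 231 CPM in chow males and 170 to 261 CPM in high-fat males, groups that overlapped. Among 9 tested markers of lipid-associated macrophages, Trem2, a lipid-sensing receptor, rose by 1.69 ± 0.26 (adjusted p = 4.02e-05), and Lpl fell. Trem2 stayed low, at 1.88 CPM or less in every liver. Stab2, a scavenger receptor that marks sinusoidal endothelium, rose by 1.31 ± 0.19 (adjusted p = 1.91e-05), the only 1 of 9 endothelial markers to pass. Each of the other markers was lower on high-fat, and the median of the 9 was -0.251 on the log2 scale. Of 5 monocyte and neutrophil markers S100a9, a calcium-binding protein of myeloid cells, rose by 1.02 ± 0.25 (adjusted p = 0.00699), and 1 also fell without chow male library 1. None of 3 B and T cell markers and none of 4 cholangiocyte markers passed in edgeR, and 1 B and T cell marker rose without chow female library 4.

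Lists for fibrosis, proliferation, protein folding, interferon response and respiration gave the following counts, beside the 11.9% of all genes that passed. Among 19 extracellular matrix and stellate cell genes none passed in edgeR, 1 had an unadjusted p under 0.05 and none passed in DESeq2. Among 23 proliferation genes none passed in edgeR, 2 had an unadjusted p under 0.05, none passed in DESeq2, and 7 rose in a fit of the 16 libraries with the lower animal numbers, which hold all 6 high-fat females and 10 of the others. Among 18 endoplasmic reticulum chaperones none passed in edgeR, 2 had an unadjusted p under 0.05 and 1 passed in DESeq2. In other edgeR fits, 10 rose in those 16 libraries, and 4 rose with a term for the animal number series. The response was higher in males for 9 with the clock score as a covariate and for none without it. In those 16 libraries it was higher in males for 1 and lower for 8. Of 21 interferon-response genes 1 rose, the antiviral Oas2 (0.57 ± 0.15, adjusted p = 0.0115), and 8 rose without chow female library 4. Of 26 oxidative phosphorylation genes 4 fell over both sexes, by 0.12 to 0.15. There were 2 falls without chow female library 2 or 5 or high-fat female library 3 or 4, and none without chow female libraries 2 and 3. Within females 11 of the 26 fell (6.41% of all genes fell in females) and within males none did. The medians were -0.145 and -0.0297, and the response was higher in males for 2 genes (1.29% of all genes). Leaving out 1 library (chow female 2 or 4, or high-fat female 6) added at most 2 calls to the matrix, proliferation and chaperone lists.

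More genes passed in B6 livers after the same week of diet: 3551 of 16477 (21.6%) in B6 and 1832 (11.1%) in TH passed in one fit of 48 libraries, where 743 genes rose (4.51%) and 1089 fell (6.61%) in TH. Of the genes that fell in TH, 688 also fell in B6 (63.2% of the TH falls and 40.7% of the B6 falls). Of those that rose in TH, 309 also rose in B6 (41.6% and 16.6%). The response itself differed between the strains for 159 genes (0.965%), 73 higher in TH (0.443%) and 86 lower (0.522%).

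Both main blocks also fell in B6. Cholesterol synthesis fell in B6 for 19 of 20 genes (10.3% of all genes fell in B6) with a median of -0.822, against -1.02 in TH in this fit, and xenobiotic metabolism for 18 of 22 with a median of -1.22, against -0.897 in TH. Sqle was the 1 member of these lists whose fall differed, -2.52 in TH and -0.95 in B6 (difference -1.56 ± 0.37, adjusted p = 0.0268). Cyp2b10 fell by 6.35 in TH and 5.23 in B6, a difference that did not pass (adjusted p = 0.353).

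Kupffer cell and interferon genes rose in B6. Of 12 Kupffer cell markers 11 rose in B6 (11.3% of all genes rose there) with a median of 0.622, and of 21 interferon genes 16 rose with a median of 0.941, against medians of 0.10 and -0.222 in TH. The difference between the strains passed for none of these genes in edgeR. The response was lower in TH at an unadjusted p under 0.05 for 7 of the Kupffer cell markers and 18 of the interferon genes, and in DESeq2 for 1 and 3. The share of all genes at that unadjusted threshold was not computed for the strain difference. Without chow female library 4 the unadjusted counts were 6 and 10.

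**Figure D5:**
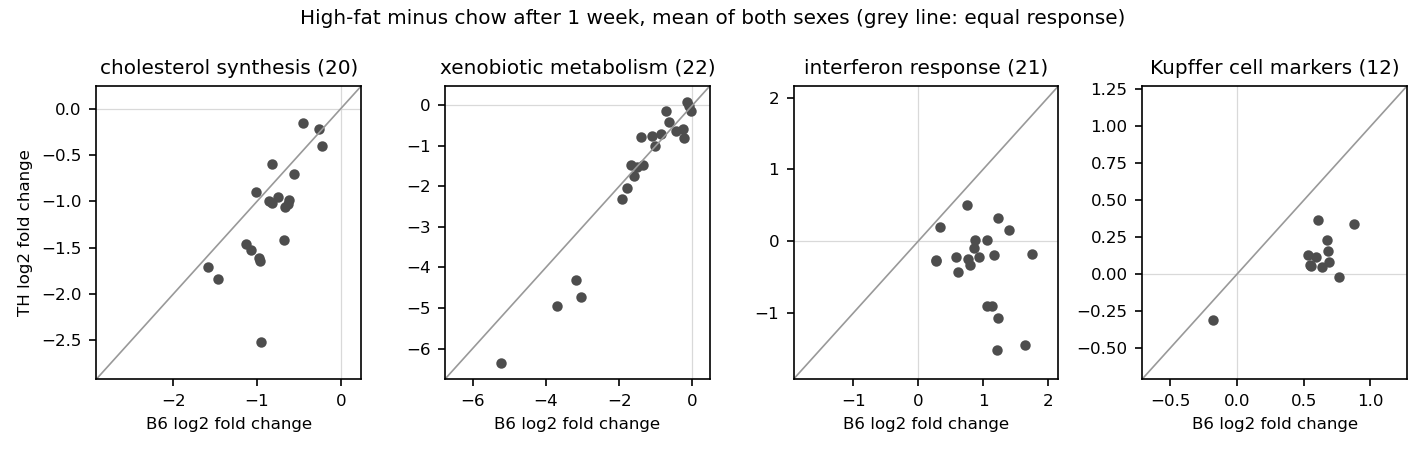
Log2 fold change (high-fat minus chow, 1 week) in TH on one axis and B6 on the other for the cholesterol synthesis (20), xenobiotic metabolism (22), interferon response (21) and Kupffer cell marker (12) genes. The grey line marks equal responses; the cholesterol synthesis genes lie mostly below it and most xenobiotic genes near it, while the interferon and Kupffer cell genes lie mostly on the side of a higher B6 value.

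Among single genes, the response of Adgrv1 was larger in TH (2.76 against 1.13 in B6, difference 1.62 ± 0.24, adjusted p = 6.53e-05). Stab2 rose in TH (1.27) and had 0.12 in B6, a difference of 1.15 ± 0.22 (adjusted p = 0.00316), with chow means of 8.69 to 9.66 CPM in TH and 67.1 to 68.1 CPM in B6. Ugt3a2 rose in TH (1.33) and had -0.13 in B6 (difference 1.47 ± 0.14, adjusted p = 6.96e-10), from chow means of 2.21 to 8.4 CPM in TH against 359 to 382 CPM in B6. Rcan2, a calcineurin regulator, fell in B6 (-1.18) and had -0.07 in TH. Ly6a fell in TH (-3.63) and had 0.80 in B6 (difference -4.43 ± 0.56, adjusted p = 3.46e-06). The 4 interferon-induced genes Tgtp1, Tgtp2, Gbp10 and Gbp6 had lower responses in TH by 2.83 to 4.59, and none of the 4 passed without chow female library 4 (adjusted p = 0.11 to 0.2).

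After 16 weeks of diet, 4652 of 16070 genes (28.9%) passed in TH liver, against 1822 (11.3%) after 1 week in the same fit of 48 libraries. Of the genes that fell at 1 week, 680 also fell at 16 weeks (61.9% of the early falls and 29.6% of the late falls). At 1 week in this fit 723 genes rose (4.5%) and 1099 fell (6.84%). Of those that rose at 1 week, 33.9% also rose at 16 weeks (10.4% of the late rises) and 50 genes fell. The response differed between the times for 1659 genes (10.3%), 778 higher at 1 week (4.84%) and 881 lower (5.48%). Age and duration of diet rose together and cannot be told apart.

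Falls in cholesterol synthesis (15 of 20 genes) and xenobiotic metabolism (20 of 22) were present at 16 weeks too, where 14.3% of all genes fell. A deeper fall at 1 week was found for 5 of the cholesterol genes, and 5.48% of all genes had a lower response at 1 week. Gstm3 was an exception, falling at 1 week (-2.04) but not passing at 16 weeks (-0.55, adjusted p = 0.0603), with a difference of -1.49 (adjusted p = 0.00193). In fatty acid synthesis 14 of 22 genes rose at 16 weeks (14.6% of all genes rose), with a median of 0.883, and 15 had a lower response at 1 week. Fasn had -0.03 at 1 week and rose by 1.97 at 16 weeks (difference -2.00, adjusted p = 5.71e-04), and Scd1 had -0.08 and rose by 2.08 (difference -2.17, adjusted p = 0.00163). Scd2, a further desaturase, had -0.23 and rose by 2.35 (difference -2.58 ± 0.46). These values are over both sexes. At 1 week Fasn, Scd1 and Scd2 were lower in males and higher in females (2.77-fold and 2.02-fold for Scd2).

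Extracellular matrix genes showed the same order. At 16 weeks 15 of 19 rose (median 0.647), beside 14.6% of all genes. A lower response at 1 week was found for 11 of the 19, beside 5.48% of all genes. The fibrillar collagen gene Col1a1 had -0.09 at 1 week and rose by 1.45 at 16 weeks (difference -1.55, adjusted p = 0.00224). Kupffer cell markers rose for 10 of 12 genes at 16 weeks, but none of the 12 passed the test of the difference between times in edgeR or DESeq2. A lower response at 1 week had an unadjusted p under 0.05 for 5 of them, a threshold whose share of all genes was not computed. Apoa4 rose at both times, by 2.22 and then 3.46, and the early rise was the smaller by 1.24 ± 0.26 (adjusted p = 0.00144). A few genes had a higher response at 1 week: Dnaic1 rose by 1.80 and then had -0.21 (difference 2.01 ± 0.53, adjusted p = 0.0101), and Vmn1r90, a vomeronasal receptor gene, rose by 0.55 at 1 week and fell by 0.96 at 16 weeks (difference 1.51 ± 0.21, adjusted p = 1.64e-05).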

How the data were processed

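Poly(A) RNA from whole liver was sequenced with a stranded kit, per the labels' protocols. The deposited table holds raw counts per gene made by the authors; the submitters' processing notes name GRCm39, DESeq2, DESeq, HISAT2 2.2.1, Trimmomatic 0.39 and SAMtools, whereas which program counted reads, whether it used strand and which gene models it used were not given in the sources used here, so overlapping and antisense genes are uncertain. Of 399 sample columns, 96 liver columns were used and 303 of other tissues were not. Symbols came from GENCODE M21, names only, for 52073 of 56980 identifiers.

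Counts were tested with edgeR 4.0.16 (R 4.3.3; TMM factors, filterByExpr with a minimum count of 10 and total of 15, quasi-likelihood F test, Benjamini-Hochberg threshold 0.05) with sex and diet as terms. Sex differences came from 4 group means, and strain and age differences from 8 group means over 48 libraries each. SE is the log2 fold change over the square root of F. CPM uses TMM-scaled library sizes. DESeq2 1.42.0, RLE factors, no filter, a replicate block, all 96 livers, each library left out and others were alternatives. Clock score, animal number and left-out-library fits were added after seeing the data. Genes were named by size of change (15 each way for diet, 6 each way for differences, mean log2 CPM of at least 1). Some list members are counted in their lists but are not reported here by name. Members and gene lists were chosen with earlier results of these data known. Replicate numbers were not taken as pairs of libraries. Each p-value tests a difference of means against the spread between animals, which in the main fits includes differences in animal number series and clock state. Counts for 15245 genes were simulated from 1 mean per gene, without differences by sex, animal number series or clock state. Changes were put only in genes above a minimum expected count. Of these, 97 of 100 genes changed by 1 on the log2 scale and 86 of 100 changed by 0.6 were recovered, with 10 false calls among 193. Recovery for genes of lower count was not tested.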

Additional observations from a re-analysis of the deposited data

Results flagged for a closer look

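Single livers lay far from the other 5 of their group for 14 of 196 groups examined (49 genes in 4 groups), where chance gives about 1 in 20. Chow female library 4 stood high for the interferon-induced genes Tgtp1 (2110 CPM), Tgtp2 (2110 CPM), Gbp10 (997 CPM) and Gbp6 (988 CPM). Chow male library 1 stood high for the clock outputs Dbp (50.8 CPM), Ciart (15.8 CPM), Per3 (35.6 CPM) and Usp2 (17.6 CPM), and low for Vtcn1 (9.27 CPM). Chow female library 3 was low for Vtcn1 (5.2 CPM), high-fat female library 6 was high for Ly6a (1.98 CPM) and high-fat male library 3 was high for Sqle (10.5 CPM). At the limit of detection, chow female library 2 alone had Moxd1 (0.0676 CPM) and chow male library 2 alone had Aldh3b3 (0.384 CPM).

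The diet response differed between the sexes for 444 genes, between TH and B6 for 159 genes and between 1 and 16 weeks of diet for 1659 genes. The male minus female difference was 1.907 for Adgrv1 and -2.26 for Sqle on the log2 scale. The Sqle difference did not pass with the clock score as a covariate (adjusted p = 0.15).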

How the results depend on the processing

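The count of 784 rises was 522 in males only and 513 in females only, and that of 1038 falls was 620 in females only, fits with 12 libraries each. Leaving out each library in turn gave 685 to 877 rises and 930 to 1113 falls, and the 30 genes named for the diet effect passed in every such fit. Responses higher in males (199) numbered 320 with DESeq2, 585 with only the 16 lower animal numbers and 311 without chow female library 4. Responses lower in males numbered 117 with the clock score and 659 with only the 16 lower animal numbers. Responses higher in TH than B6 (73) numbered 37 without a filter, 140 with DESeq2 and 121 with all 96 livers, and lower ones (86) numbered 49 without a filter and 134 with DESeq2. No alternative moved the age counts by over 1.5 times. With the clock score, the male minus female values of Ciart (-0.8072) and Usp2 (-0.05165) reversed. The cause was not tested.

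A replicate block gave 778 rises and 1038 falls, 193 and 253 sex differences, 85 and 76 strain differences and 784 and 860 age differences. Same-numbered libraries of different groups had correlations of deviations from -0.194 to 0.4 (median 0.0357, 28 of 36 pairs under 0.1), and 10 of 24 libraries correlated best with their own number, so the numbers were not taken as pairs. Sequencing of 7210707 counts or more limits genes near 0.1 CPM to single counts.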
